A study of Oryzias latipes with 12 samples.

Results

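Proliferation and cell cycle genes were taken from the brain transcriptome of medaka (Oryzias latipes) by symbol: subunits of the origin recognition, MCM, GINS, centromere and condensin complexes, cyclins, mitotic kinases, CDC proteins, mitotic kinesins and single genes such as cdk1, cdk2, pcna, top2a, tpx2, ttk and smc2. In all, 78 symbols of the table matched, and 76 of them reached a TPM (a level scaled for transcript length and for the library's total) of at least 1 in at least 3 of 12 libraries. These 76 are the members described, out of 18218 genes that passed the same filter and 26663 genes in all. The 2 that did not pass were orc1, an origin recognition subunit, and cdc20b, a paralog of the mitotic activator cdc20. The rule also asks for mki67, rrm1, rrm2 and prc1, and these 4 symbols matched no row. The pattern caught 4 genes by their letters alone: aurkaip1, which codes for a protein of the mitochondrial ribosome, cdc73, part of the Paf1 transcription elongation complex, mcm3ap, an mRNA export factor, and ccnb1ip1, known from meiotic recombination in mammals. The other 72 members code for replication or division machinery.

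The samples were brain pieces holding ventral telencephalon, hypothalamus and pituitary, from wild-type fish and from fish with a phod1 knockout, which the sample labels write as pd1 knockout. All fish were first kept under short days. In each genotype 3 libraries were made from fish taken under short days, before any transfer (wild-type replicates 1, 2 and 3, knockout replicates 1, 3 and 4). Another 3 were made from fish taken 12 days after a move to long days (wild-type replicates 13, 14 and 15, knockout replicates 13, 14 and 16), and all were taken at hour 12 of the clock. No short-day group was taken at the later date, so day length, the move itself and the elapsed time cannot be told apart. The labels give no age, sex or strain, do not describe the knockout allele or the number of lines, and do not say whether a library is 1 fish or a pool, so p-values measure the spread between libraries, which may be technical. No gene name or synonym in the reference matched phod1 or pd1, so the level of the targeted gene was not analysed here.

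A cell that is about to divide first licenses its replication origins: the origin recognition complex and CDC6 load the ring-shaped MCM helicase onto DNA. CDC7 and cyclin-dependent kinases then recruit CDC45 and the GINS complex, and the active helicase opens the replication fork, where PCNA clamps the polymerases to DNA. Entry into mitosis depends on CDK1 with cyclin B, switched on by CDC25, and condensin, kinetochore proteins, Aurora and Polo-like kinases and kinesin motors then compact, attach and separate the chromosomes. In adult teleost brains, radial glial cells along the ventricles keep dividing and give rise to neurons, and the hypothalamus and telencephalon hold such zones. Dividing cells are nevertheless a small part of the adult brain.

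Most members were scarce. Their mean TPM over the 12 libraries ran from 0.689 for cdc6 to 95.0 for pcna, with a median of 2.80, and 22 of the 76 had a mean of at least 5 TPM. The most abundant member was mcm7, at 17.2 TPM, among 11 licensing genes, pcna among 9 genes of helicase activation and the fork, and cdk1, at 17.8 TPM, among 10 cyclin, CDK and CDC25 genes. The spindle checkpoint protein gene bub3 led 9 mitotic kinase and checkpoint genes at 27.4 TPM, and the histone-fold protein gene cenpw led 17 centromere and kinetochore genes at 25.9. The spindle assembly factor gene tpx2 led 8 spindle genes at 3.69, and the condensin II subunit gene ncapg2 led 8 condensin and topoisomerase genes at 5.67. Libraries of the whole series correlated at 0.971 to 0.980 within groups and at 0.957 to 0.979 between groups (Pearson, log2(TPM + 1) over genes). Short-day wild-type replicate 3 stood apart in interferon genes, with the antiviral gene rsad2 at 287 TPM against at most 6.3 in the other 11 libraries, and a call that is lost without it is given with that library's name.

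Long days went with higher levels of a few cell cycle genes. Over both genotypes, 5 of the 76 members rose under long days and 0 fell: mcm7, cdk1, tpx2, kif23 and ccnb1. That is 6.58% of the members, where 3.08% of all tested genes were called in this comparison and 1.27% were called higher (limma on log2(TPM + 1), Benjamini-Hochberg adjusted p under 0.05 over all tested genes). One of these, kif23, met the filter on low values through its long-day libraries alone. With genes at 1 TPM or more in at least 3 libraries of each day length, a filter added after the data were seen, 66 members were tested and 4 rose, all but kif23, or 6.06%, where 3.25% of the 17195 genes tested were called and 1.33% were called higher. In the knockout alone 3 members rose (mcm7, cdk1 and tpx2) and 1 fell (aurkaip1), or 5.26% of the members, against 1.76% of all genes called and 1.11% called higher. When the knockout groups were fitted without the wild-type libraries, 0 members were called. The share of all genes called in that fit is not given here, so this count has no background beside it. In wild type alone 0 members were called by limma, where 0.192% of all genes were, and 13 members (17.1%) were higher and 1 (1.32%) was lower at an unadjusted p under 0.05, against 2.93% and 8.69% of all tested genes. These are whole-tissue values, in which a change in the number of dividing cells and a change in RNA per cell cannot be told apart.

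The licensing gene mcm7, a subunit of the replicative helicase, had the smallest p of all members. Its levels under short days were 15.1, 12.3 and 14.2 TPM in wild type and 14.1, 12.9 and 12.1 TPM in the knockout. Under long days they were 19.1, 20.3 and 22.5 TPM in wild type and 21.9, 23.0 and 19.2 TPM in the knockout. Every long-day library was above every short-day library in both genotypes. Over both genotypes the level went from 13.4 ± 1.19 to 21.0 ± 1.67 TPM (SD, n = 6 each), a ratio of 1.56, and the difference in log2(TPM + 1) was 0.61 (SE 0.08, adjusted p = 0.00270, limma). It was 0.67 in the knockout (adjusted p = 0.0126) and 0.54 in wild type (adjusted p = 0.0848), and the difference between genotypes was 0.13 with a 95% interval from -0.20 to 0.46 (adjusted p = 0.843). The pooled call held with each of the 12 libraries left out in turn (adjusted p at most 0.0107), while the knockout call was lost when knockout replicate 4, 13 or 14 was left out (adjusted p at most 0.0659).

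The kinase gene cdk1, whose product drives entry into mitosis, was even across the short-day libraries. It stood at 14.7, 13.9 and 14.99 TPM in wild type and at 14.7, 15.1 and 13.7 TPM in the knockout. Under long days it stood at 22.7, 21.3 and 16.4 TPM in wild type and at 21.9, 22.4 and 21.6 TPM in the knockout. All 6 long-day libraries lay above all 6 short-day libraries, with long-day wild-type replicate 15 nearest to them. The pooled levels were 14.5 ± 0.578 and 21.0 ± 2.33 TPM (SD, n = 6 each), a ratio of 1.45 and a difference in log2(TPM + 1) of 0.50 (SE 0.08, adjusted p = 0.00699, limma). The difference was 0.57 in the knockout (adjusted p = 0.0296) and 0.43 in wild type (adjusted p = 0.146). The pooled call held without any 1 of the 12 libraries (adjusted p at most 0.0251), and the knockout call was lost without any 1 of its 6 (adjusted p at most 0.110).

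Its partner ccnb1, the B-type cyclin that activates CDK1 at mitosis, was scarcer. Under short days ccnb1 stood at 1.97, 1.68 and 1.23 TPM in wild type and at 1.13, 1.28 and 1.09 TPM in the knockout. Under long days it stood at 2.38, 3.21 and 2.70 TPM in wild type and at 2.29, 2.84 and 1.95 TPM in the knockout. The groups did not overlap within either genotype, and the lowest long-day value, in the knockout, was just under the highest short-day value, in wild type. The difference over both genotypes was 0.57 in log2(TPM + 1) (SE 0.12, adjusted p = 0.0331, limma), from 1.40 ± 0.351 to 2.56 ± 0.447 TPM (SD, n = 6 each). This is the least stable of the 5 pooled calls, since it held without 3 of the 12 libraries taken 1 at a time and was lost without each of the other 9, short-day wild-type replicate 3 among them (adjusted p at most 0.0867).

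The other 8 genes of the cyclin, CDK and CDC25 group did not pass. With cdk1 and ccnb1, 9 of 10 were higher under long days over both genotypes, and the group median was 0.25. Of the 10, ccna1 and ccnb2 met the filter on low values only through long-day libraries. The phosphatase gene cdc25b, which removes the inhibitory phosphates from CDK1, differed by 0.42 (adjusted p = 0.106) and cdk2, a kinase of S phase, by 0.26 (adjusted p = 0.304). The cyclin E genes ccne1 and ccne2, which act at the start of S phase, differed by 0.10 and -0.12 (adjusted p = 0.682 and 0.701). These values are descriptions of genes that did not pass.

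**Figure D1:**
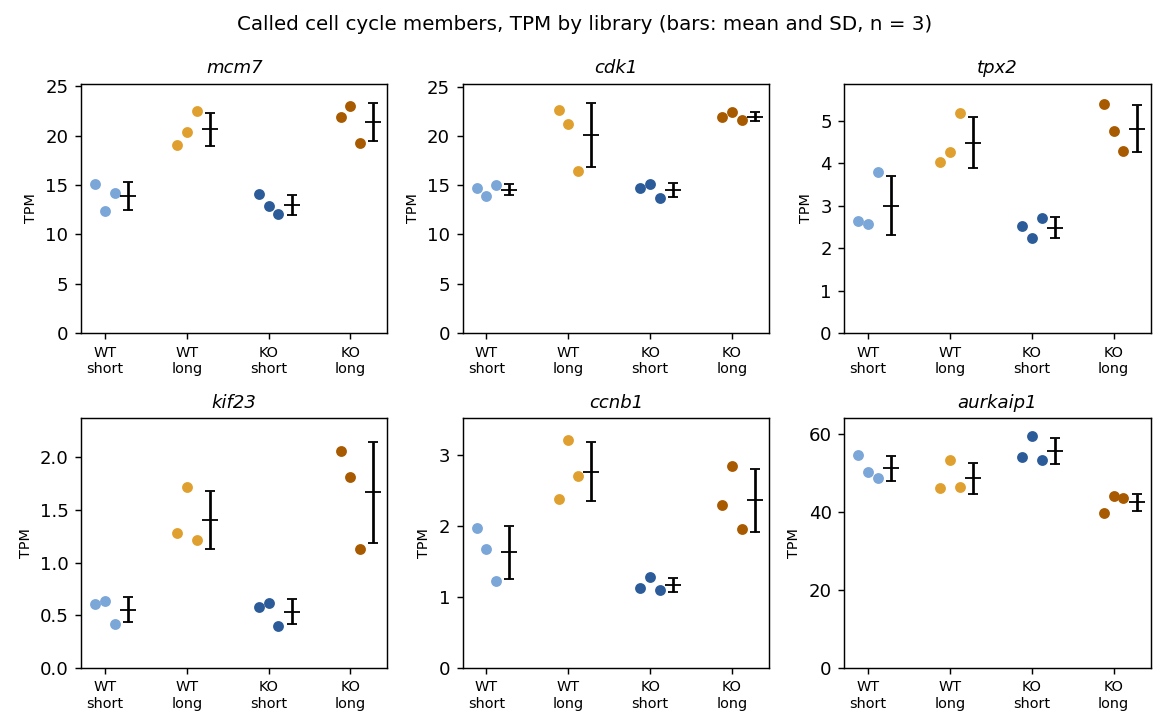
TPM (y axis, from 0) of the 6 members called in a photoperiod comparison, by genotype (WT, wild type; KO, knockout) and day length (x axis). Points are single libraries and bars are means with SD, n = 3. In mcm7, cdk1, tpx2 and kif23 every long-day library is above every short-day library, while in aurkaip1 the long-day libraries lie below the short-day libraries in the knockout and overlap with them in wild type.

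Among spindle genes, tpx2 and kif23 rose over both genotypes. The product of tpx2 nucleates spindle microtubules and activates Aurora A. Its level under short days was 2.63, 2.56 and 3.80 TPM in wild type and 2.52, 2.23 and 2.70 TPM in the knockout. Under long days it was 4.02, 4.26 and 5.17 TPM in wild type and 5.38, 4.76 and 4.28 TPM in the knockout. No long-day library fell into the short-day range, although short-day wild-type replicate 3 came close. The pooled difference was 0.60 in log2(TPM + 1) (SE 0.11, adjusted p = 0.0188, limma), from 2.74 ± 0.544 to 4.65 ± 0.548 TPM (SD, n = 6 each), with 0.74 in the knockout (adjusted p = 0.0467) and 0.46 in wild type (adjusted p = 0.290). The pooled call was lost without short-day wild-type replicate 2, long-day wild-type replicate 15 or long-day knockout replicates 13 or 14 (adjusted p at most 0.0529), and the knockout call without any 1 of its 6 libraries (adjusted p at most 0.163).

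The kinesin gene kif23, a component of centralspindlin at the midzone where dividing cells are pinched apart, had the highest ratio among the 5. Its short-day levels were all under 1 TPM, at 0.61, 0.63 and 0.42 in wild type and 0.58, 0.62 and 0.40 in the knockout. Its long-day levels were all above 1 TPM, at 1.28, 1.72 and 1.21 in wild type and 2.06, 1.81 and 1.13 in the knockout. It therefore passed the filter through its long-day libraries alone, so its presence among the tested genes is not independent of its direction. The pooled levels were 0.543 ± 0.105 and 1.54 ± 0.380 TPM (SD, n = 6 each), a ratio of 2.83, and the difference in log2(TPM + 1) was 0.71 (SE 0.14, adjusted p = 0.0235, limma). The call was lost without short-day wild-type replicate 3, short-day knockout replicate 4 or long-day knockout replicates 13 or 14 (adjusted p at most 0.0662). Of all members, 8 reached the filter only through long-day libraries and 0 only through short-day libraries.

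Over both genotypes the median of the 8 spindle genes was 0.43, all 8 were higher under long days, and 6 of them did not pass. Next after the called genes were kif22, a chromokinesin that pushes chromosome arms, and kif18a, a motor that dampens chromosome movement at the metaphase plate. The kif22 levels were 1.58 to 2.91 TPM under short days and 2.99 to 4.39 TPM under long days, with no overlap (difference 0.54, SE 0.14, adjusted p = 0.0575). The kif18a levels were 0.86 to 1.66 TPM under short days and 1.63 to 2.74 TPM under long days, separate within each genotype (difference 0.52, SE 0.13, adjusted p = 0.0559). Of 18 alternatives kif22 was called in 3 and kif18a in 5 (limma, adjusted p up to 0.127 for each). Both were called when the prior variance carried no trend with mean level and when libraries were rescaled. The slow plus-end motor gene kif11, which pushes the spindle poles apart, differed by 0.23 (adjusted p = 0.319).

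Condensin genes were also higher under long days, although none of the group passed. All 8 genes of this group, with the DNA topoisomerase gene top2a, were above 0 over both genotypes, with a median of 0.41. Among them ncaph and ncapd3 met the filter on low values only through long-day libraries, so this tally is not independent of the filter. The condensin II subunit gene ncapd3 had the largest difference of any member, 1.22 in log2(TPM + 1), and it also had a wide error (SE 0.32, adjusted p = 0.0645, limma). Like kif23, it met the filter on low values only through its long-day libraries, so its place among the tested genes is not independent of its direction. Under short days its levels were 4.60, 0.73 and 0.97 TPM in wild type and 0.57, 0.99 and 2.81 TPM in the knockout. Under long days they were 6.43, 5.19 and 3.54 TPM in wild type and 6.64, 3.80 and 3.69 TPM in the knockout. Short-day wild-type replicate 1 and short-day knockout replicate 4 were far above the rest of their groups, and the wild-type groups overlapped.

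The core condensin gene smc2, an ATPase shared by both condensin complexes, stood at 2.69, 2.37 and 2.63 TPM under short days and 3.21, 3.33 and 3.93 TPM under long days in wild type. In the knockout smc2 stood at 1.49, 1.77 and 1.45 TPM under short days and at 3.86, 3.44 and 2.16 TPM under long days. Long-day libraries were above short-day libraries within each genotype, and the lowest long-day knockout value, 2.16 TPM, was below all 3 wild-type short-day values. The pooled difference was 0.50 (SE 0.12, adjusted p = 0.0549, limma). In 4 of 18 alternatives smc2 was called: without trend, with array weights, with rescaled libraries and without long-day knockout replicate 16. In the others it was not (adjusted p up to 0.127, limma). The condensin II subunit gene ncapg2, the most abundant of the group, differed by 0.06 (95% interval -0.22 to 0.34, adjusted p = 0.865). Within 1 complex, condensin II, the differences therefore ran from 0.06 for ncapg2 to 1.22 for ncapd3, with ncaph2 at 0.53 (adjusted p = 0.0850), and the upper end rests on the gene that passed only through long-day libraries.

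Mitotic kinase, checkpoint, centromere and kinetochore genes held no called member. All 9 kinase and checkpoint genes were above 0 over both genotypes, with a median of 0.29, from a value next to 0 for bub3 to 0.52 for the Polo-like kinase gene plk1 (adjusted p = 0.126). For bub3, which delays anaphase until chromosomes are attached, the levels were 27.4 ± 2.15 TPM under short days and 27.4 ± 2.09 TPM under long days (SD, n = 6 each), with a 95% interval of the log2 difference from -0.14 to 0.14. Of 17 centromere and kinetochore genes 16 were higher, with a median of 0.21, and only cenph was lower, by -0.04. Among these 17, cenpn and cenpu met the filter on low values only through long-day libraries. The kinetochore gene cenpf was at 0.84 to 1.10 TPM in the short-day libraries and at 1.14 to 2.57 TPM in the long-day libraries, without overlap, and did not pass (difference 0.50, SE 0.15, adjusted p = 0.109). The abundant cenpw, part of the inner kinetochore, differed by 0.08 (adjusted p = 0.761).

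**Figure D2:**
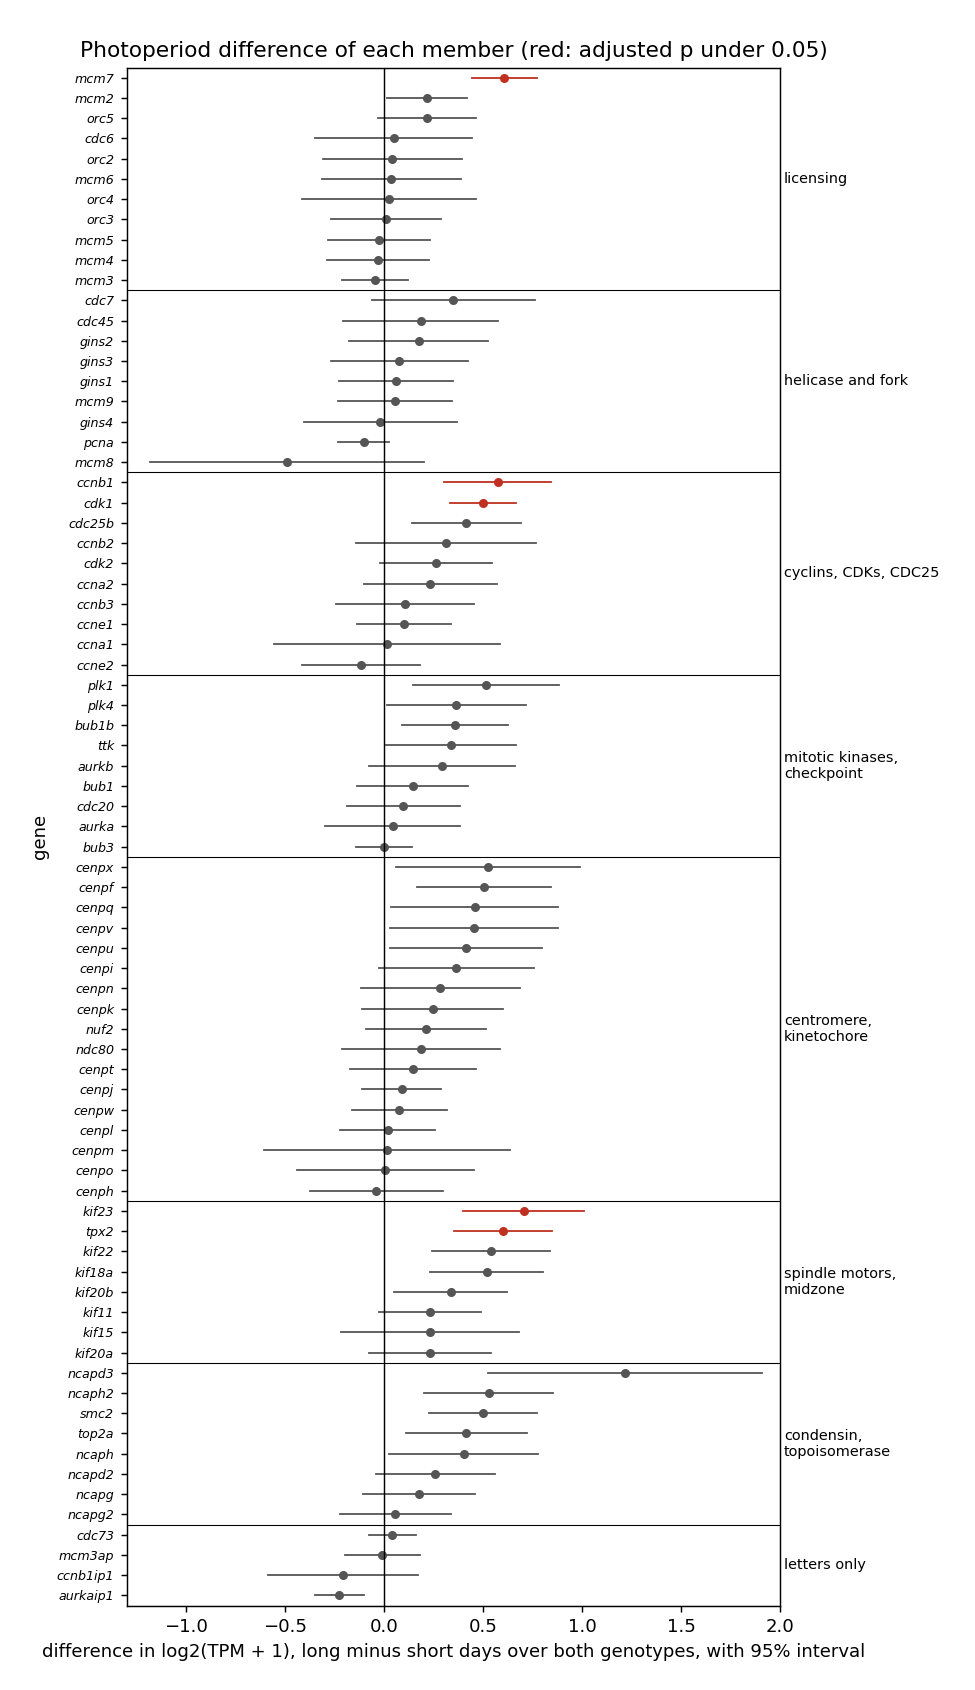
Difference in log2(TPM + 1) between long and short days over both genotypes (x axis) for each of the 76 members (y axis), grouped by role, with 95% intervals from the limma fit over all genes. Red marks the 5 called members, mcm7, cdk1, ccnb1, kif23 and tpx2. Nearly all spindle, condensin, kinase and kinetochore genes lie to the right of 0, and most licensing and fork genes lie close to it.

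No replication gene other than mcm7 was called by day length. The 11 licensing genes had a median of 0.04 over both genotypes with 8 higher, and the 9 genes of helicase activation and the fork had a median of 0.06 with 6 higher. The most abundant member, pcna, stood at 91.2, 104 and 89.9 TPM in wild type and 99.8, 107 and 98.6 TPM in the knockout under short days. Under long days pcna stood at 93.8, 98.0 and 84.3 TPM in wild type and at 95.9, 82.9 and 94.7 TPM in the knockout. The groups overlapped in wild type, and in the knockout all short-day values were the higher ones. The difference over both genotypes was -0.10 (95% interval -0.23 to 0.03, adjusted p = 0.386, limma). The lowest difference of the group was that of mcm8, a helicase of homologous recombination, at -0.49 (adjusted p = 0.446), and its levels within single groups spread widely, from 1.88 to 6.07 TPM in long-day wild type and from 3.04 to 11.4 TPM in the long-day knockout.

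The products of mcm2 to mcm7 form the MCM ring in equal numbers, and of these 6 genes only mcm7 was called. Differences between the subunits were not tested. The differences over both genotypes were 0.22 for mcm2 (SE 0.09, adjusted p = 0.231), -0.05 for mcm3, -0.03 for mcm4, -0.02 for mcm5 and 0.04 for mcm6 (adjusted p from 0.803 to 0.938). The 95% interval ran from -0.21 to 0.12 for mcm3, from -0.29 to 0.23 for mcm4, from -0.28 to 0.23 for mcm5 and from -0.31 to 0.39 for mcm6, and that of mcm7 ran from 0.44 to 0.77. As a description, the level of mcm7 divided by the median level of the other 5 subunits was 2.53, 1.55 and 1.74 in the short-day wild-type libraries and 1.83, 1.38 and 1.50 in the short-day knockout libraries. It was 2.43, 2.69 and 2.62 in long-day wild type and 3.11, 3.06 and 2.91 in the long-day knockout. Only short-day wild-type replicate 1, at 2.53, reached into the long-day range.

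**Figure D3:**
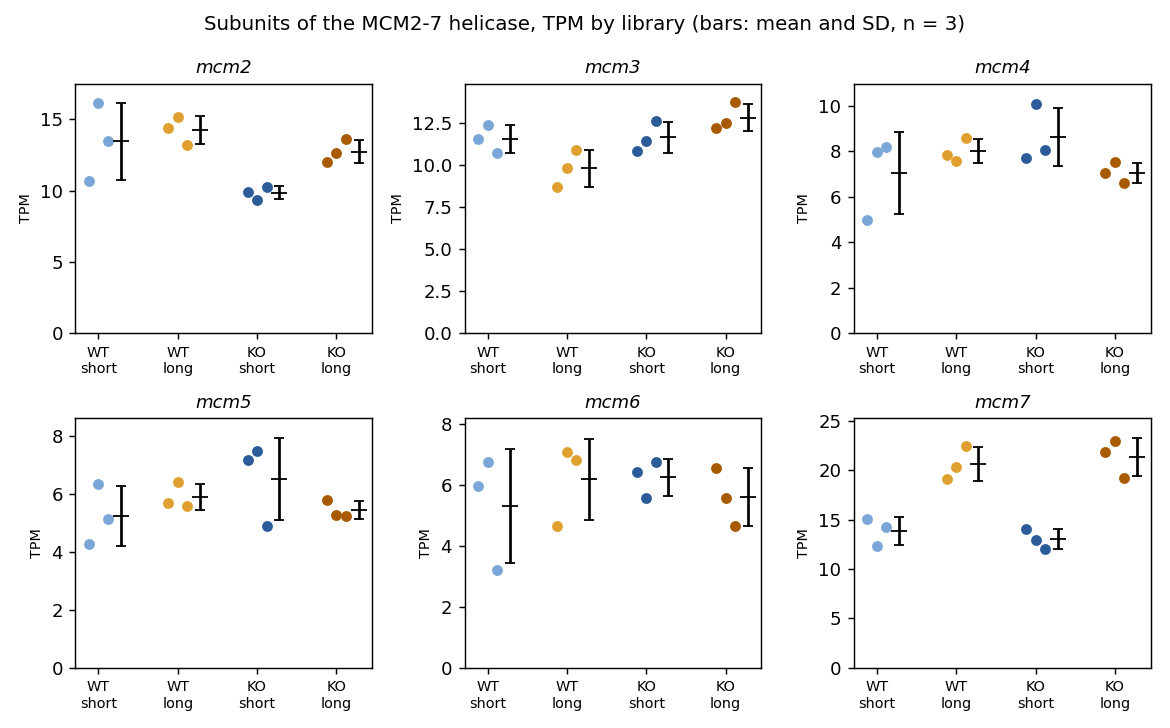
TPM (y axis, from 0, each panel with its own scale) of the 6 subunits of the MCM helicase by genotype and day length (x axis). Points are libraries and bars are means with SD, n = 3. In mcm7 the long-day libraries, at 19.1 to 23.0 TPM, lie above the short-day libraries, at 12.1 to 15.1 TPM, and in each of the other 5 panels long-day and short-day libraries overlap over both genotypes.

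Grouped after the values were seen, the 42 genes of the 4 mitosis roles (kinases and checkpoint, kinetochore, spindle, condensin) had a median difference of 0.29 over both genotypes with 41 higher, and the 20 genes of the 2 replication roles had a median of 0.05 with 14 higher. Genes that met the filter only through long-day libraries are in both sets. They are kif23, ncapd3, ncaph, cenpn and cenpu in the mitosis roles and cdc45 in the replication roles. The median over all 76 members was 0.20, with 65 higher, and that over all tested genes was -0.01, with 47.7% higher. In wild type the members' median was 0.21 with 57 higher, against -0.05 and 38.8% higher over all genes. In the knockout it was 0.18 with 63 higher, against 0.03 and 55.8% over all genes. Higher in both genotypes were 48 members, or 63.2%, against 26.7% of all tested genes, while 4 members were lower in both, 9 were higher in wild type alone and 15 in the knockout alone. The filter treats both day lengths alike, and 8 members met it only through long-day libraries and 0 only through short-day libraries. Among the 51 members at 1 TPM or more in all 12 libraries the median was 0.17 with 44 higher. The 22 members with a mean of at least 5 TPM had a median of 0.04 and the 54 below it had a median of 0.24, and the part of level in the contrast between roles was not tested.

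Separation of the libraries gave a similar picture gene by gene. In 6 members, cdk1, cenpf, kif22, kif23, mcm7 and tpx2, all 6 long-day libraries were above all 6 short-day libraries. That is 7.89% of the members against 0.955% of all tested genes. Of these members, kif23 met the filter on low values only through its long-day libraries, so its separation is not independent of the filter. All 6 short-day libraries were above all 6 long-day libraries in 0 members, against 1.64% of all genes. Requiring separation within each genotype instead added ccnb1, kif18a and smc2, to 9 members or 11.8%, against 1.53% of all genes. This count also includes kif23. Within wild type alone 18 members (23.7%) were separated with long days higher, against 4.95% of all genes. Within the knockout alone 22 (28.9%) were, against 12.8%. The wild-type count includes kif23, and the knockout count includes kif23, cenpu and ncapd3. These met the filter on low values only through long-day libraries, so neither count is independent of the filter. Short days were higher without overlap in 1 member (1.32%) in wild type, cenpl, against 12.1% of all genes. In the knockout they were higher in 3 members (3.95%), aurkaip1, mcm4 and pcna, against 9.00%. With groups of 3, the counts within 1 genotype rest on few libraries.

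**Figure D4:**
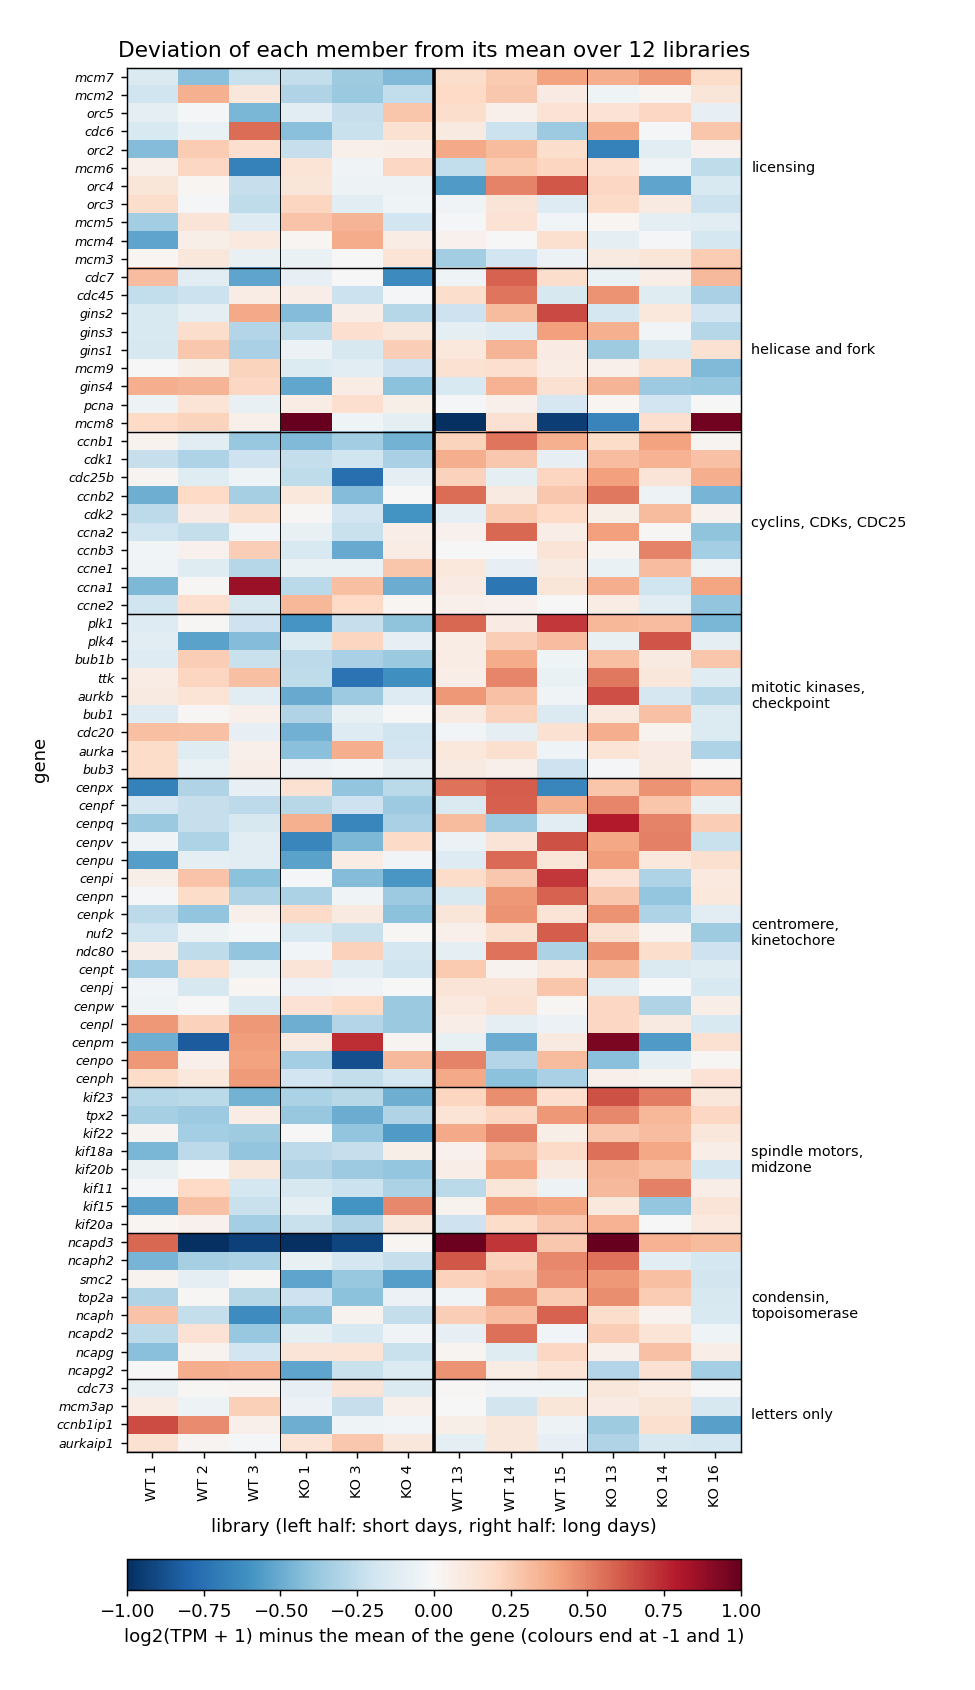
Deviation of each of the 76 members (rows, grouped by role) from its own mean over the 12 libraries (columns, short days on the left, long days on the right), in log2(TPM + 1), with colours ending at -1 and 1. Short-day columns are mostly blue and long-day columns mostly red below the replication rows, and long-day knockout replicate 16 is paler than the rest of its group.

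The libraries of a group did not carry the members evenly. The median deviation of the 76 members from their means over the 12 libraries was -0.07, 0.01 and -0.10 in short-day wild type and -0.15, -0.18 and -0.13 in the short-day knockout. It was 0.07, 0.19 and 0.13 in long-day wild type and 0.21, 0.09 and -0.08 in the long-day knockout. Long-day knockout replicate 16 was thus within the short-day range, with 34 of 76 members above their means, while the median over all tested genes ran from -0.08 to 0.05 across libraries. Without that library 8 members were called over both genotypes, mcm7, cdk1, tpx2, kif23, ccnb1, kif18a, smc2 and plk1, and without long-day knockout replicates 13 or 14 the calls were 2, mcm7 and cdk1. The shares of all genes called in these fits are not given here.

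Of the genes matched by letters alone, aurkaip1 fell in the knockout. Its levels there were 54.1, 59.4 and 53.3 TPM under short days and 39.8, 44.0 and 43.5 TPM under long days, without overlap. In wild type aurkaip1 stood at 54.7, 50.2 and 48.7 TPM under short days and at 46.2, 53.3 and 46.5 TPM under long days, with overlap. The difference was -0.38 in the knockout (SE 0.08, adjusted p = 0.0408, limma) and -0.07 in wild type (adjusted p = 0.784), and the test of the difference between them did not pass (-0.31, 95% interval -0.55 to -0.06, adjusted p = 0.542). The knockout call was lost without any 1 of its 6 libraries (adjusted p at most 0.145). It was also lost when short-day wild-type replicate 3 was left out of the shared spread. The other 3 genes of this kind were not called, and without all 4 the members' median over both genotypes was 0.22.

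Among other genes of the same pathways 0 were called, beside low shares of all tested genes. Those shares were 3.08% with both genotypes pooled, 1.76% for the knockout and 0.192% for wild type (limma, adjusted p under 0.05). Against shares this low, a count of 0 says little about these genes. A list of 76 further replication and mitosis genes (polymerases, clamp loader, replication protein A, passenger complex, cytokinesis and the like) had 68 in the table and 62 tested, of which 0 were called in any photoperiod comparison by limma. The median over both genotypes was 0.16, 47 of the 62 were higher under long days, and 12 (19.4%) were higher and 1 (1.61%) lower at an unadjusted p under 0.05. Of all tested genes 8.07% were higher and 10.7% lower at that p. Among the 62, espl1 met the filter on low values only through long-day libraries, and dbf4 only through short-day libraries. The nearest to a call was racgap1, the partner of KIF23 in centralspindlin, named after its values were seen. It stood at 1.32 to 2.03 TPM in the short-day libraries and at 2.10 to 2.77 TPM in the long-day libraries, without overlap (difference 0.45, SE 0.11, adjusted p = 0.0518).

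A list of 35 G1 and transcriptional regulators (E2F, DREAM complex, D-type cyclins, CDK inhibitors and BTG antiproliferative genes) had 26 genes in the table and 25 tested, with a median of -0.01 over both genotypes. There 1 rose and 1 fell by the adjusted p, where 3.08% of all tested genes were called. At an unadjusted p under 0.05 (limma), 7 (28%) were higher and 2 (8%) lower, against 8.07% and 10.7% of all tested genes. Among the 25, e2f8 and mybl2 met the filter on low values only through long-day libraries. The antiproliferative gene btg3 rose, with levels between 18.9 and 26.9 TPM in the short-day libraries and between 27.9 and 33.3 TPM in the long-day libraries (difference 0.42, SE 0.07, adjusted p = 0.00785, limma). The D-type cyclin gene ccnd1, which acts with CDK4 and CDK6 in G1, fell, with levels between 35.2 and 37.0 TPM in the short-day libraries and between 28.2 and 32.9 TPM in the long-day libraries (difference -0.26, SE 0.04, adjusted p = 0.0120). Neither overlapped between day lengths, and both were also called in the knockout alone (adjusted p = 0.0209 for btg3 and 0.0375 for ccnd1) and not in wild type alone (adjusted p = 0.231 and 0.232). The direction of ccnd1 was thus opposite to that of cdk1 and ccnb1.

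Single markers of other cell types were called by day length as well, and their part in the results above was not tested. Of all tested genes 3.08% were called over both genotypes. Of 13 radial glia markers 10 rows matched and 8 were tested, and cyp19b, the brain aromatase of radial glia in fish, and s100b rose over both genotypes (differences 1.51 and 0.39, adjusted p = 0.000202 and 0.0120). Of the 8 tested, 3 were higher and 5 lower under long days, with a median difference of -0.02. The summed radial glia level was 5838 to 5984 TPM in short-day and 6816 to 7223 TPM in long-day wild type, and 5781 to 6395 TPM in the short-day and 6264 to 6707 TPM in the long-day knockout, where the ranges overlap. Within that sum the cyp19b mean went from 240 to 778 TPM in wild type and from 278 to 689 TPM in the knockout. Of 11 neuroblast markers neurod1 fell (difference -0.44, adjusted p = 0.00582), while 5 of the 11 were higher and 6 lower (median -0.03), with summed levels of 826 to 974 TPM that overlapped in all groups. At an unadjusted p under 0.05 (limma), 0 of the 11 were higher and 4 (36.4%) lower, against 8.07% and 10.7% of all tested genes. The pituitary gonadotropin genes lhb, cga and fshb, 3 of 7 pituitary markers tested, rose. Of the 7, 4 were higher and 3 lower under long days, with a median of 0.11. The summed pituitary level was 3552 to 6670 TPM in short-day and 5239 to 9503 TPM in long-day wild type, and 2119 to 9278 TPM in the short-day and 4659 to 9231 TPM in the long-day knockout. Most of the mean sum was the hormone precursor gene pomc, with a mean of 4523 of 5080 TPM in short-day wild type. Within the short-day knockout pomc ran from 1602.5 to 8537 TPM. The row of prl was at 0.31 TPM in short-day wild-type replicate 1, at 0.35 TPM in long-day knockout replicate 14 and at 0 in all other libraries. Neuron markers summed to 4049 to 4878 TPM. Of 6 neuron markers tested gad1 was called lower under long days, while 3 of the 6 were higher and 3 lower (median -0.005). Of the microglia (3 tested), endothelial (5), oligodendrocyte (6), erythroid (1) and interferon (5) markers none was called by day length. The single erythroid marker, rhag, was lower by -0.29 over both genotypes, at an unadjusted p under 0.05 (limma). At that p 1 of the 3 microglia markers was also lower.

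No cell cycle gene passed between genotypes. Between genotypes limma called 0 members in short-day fish, 0 in long-day fish and 0 over both, where 0.664%, 0.642% and 2.4% of all tested genes were called. At an unadjusted p under 0.05, 0 members were higher and 8 lower in the knockout under short days, 1 higher and 2 lower under long days, and 1 higher and 8 lower over both. Among all 18218 genes that p was reached, in either direction, by 2398, 2051 and 2841. Counted in either direction, this is a larger share than among the members in each of the 3 comparisons. The shares of all genes higher and lower at that p are not given here, so the lower members have no background by direction. The members' median genotype difference was -0.06 over both day lengths, against -0.003 for all genes. In the knockout 49 of 76 members were lower, and the share of all genes that were lower is not given here. Of the microglia and leukocyte markers 3 of 9 were in the table, with summed levels of 295 to 413 TPM in wild type and 208 to 259 TPM in the knockout. Nearly all of the sum was 1 gene, cd74, at a mean of 329 of 339 TPM in long-day wild type. All 3 were lower in the knockout over both day lengths. Under long days 1 was higher, spi1, at a mean of 4.57 TPM against 4.27 TPM in wild type. Of the 3 leukocyte markers, cd74 was called lower over both day lengths (limma). So were s100b of 8 radial glia markers tested (4 higher, 4 lower) and dlx1 of 11 neuroblast markers (6 higher, 5 lower). Of 7 pituitary markers (3 higher, 4 lower) pou1f1 was called higher. All 5 endothelial and all 6 oligodendrocyte markers were higher and all 5 interferon markers lower, with none called. The part of any of these markers in the members' genotype differences was not tested.

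The smallest p over both day lengths was that of ncapg2. Its levels were 5.56, 7.42 and 7.31 TPM in short-day wild type and 3.54, 4.61 and 4.94 TPM in the short-day knockout, without overlap. Under long days ncapg2 stood at 7.92, 5.87 and 6.17 TPM in wild type and at 4.33, 6.25 and 4.17 TPM in the knockout, with overlap. The difference was -0.46 (SE 0.13, adjusted p = 0.0952, limma). The next were cenpl, at -0.34 (adjusted p = 0.156), and mcm2, at -0.27 (adjusted p = 0.169). For the 5 members called by day length the genotype differences over both day lengths ran from -0.22 for ccnb1 (95% interval -0.49 to 0.05) to 0.06 for cdk1 (95% interval -0.10 to 0.23).

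The photoperiod difference itself was not shown to depend on genotype in any member. In the test of the difference between genotypes 0 of 76 members passed by limma, where 1 gene in the whole table did (0.00549%). At an unadjusted p under 0.05, 4 members were higher and 1 lower. Among all 18218 genes 1444 reached that p in either direction, a larger share than among the members. The smallest p was that of cenpl, which codes for an inner kinetochore protein. It stood at 3.40, 2.82 and 3.39 TPM in short-day wild type, above all other libraries, and at 2.42, 2.04 and 2.13 TPM in long-day wild type. In the knockout cenpl stood at 1.32, 1.66 and 1.52 TPM under short days and at 2.77, 2.46 and 1.93 TPM under long days. The photoperiod differences were thus -0.39 in wild type and 0.43 in the knockout, and the test of their difference gave 0.83 (95% interval 0.35 to 1.31, adjusted p = 0.372). Under short days alone cenpl was lower in the knockout by -0.75 (adjusted p = 0.0602), and it was called when the prior variance carried no trend. The spindle motor gene kif11 had a difference between genotypes of 0.60 (95% interval 0.08 to 1.12, adjusted p = 0.567). For the 5 called members the intervals all contained 0, from 0.10 for ccnb1 (95% interval -0.44 to 0.65) to 0.27 for tpx2 (95% interval -0.22 to 0.77).

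**Figure D5:**
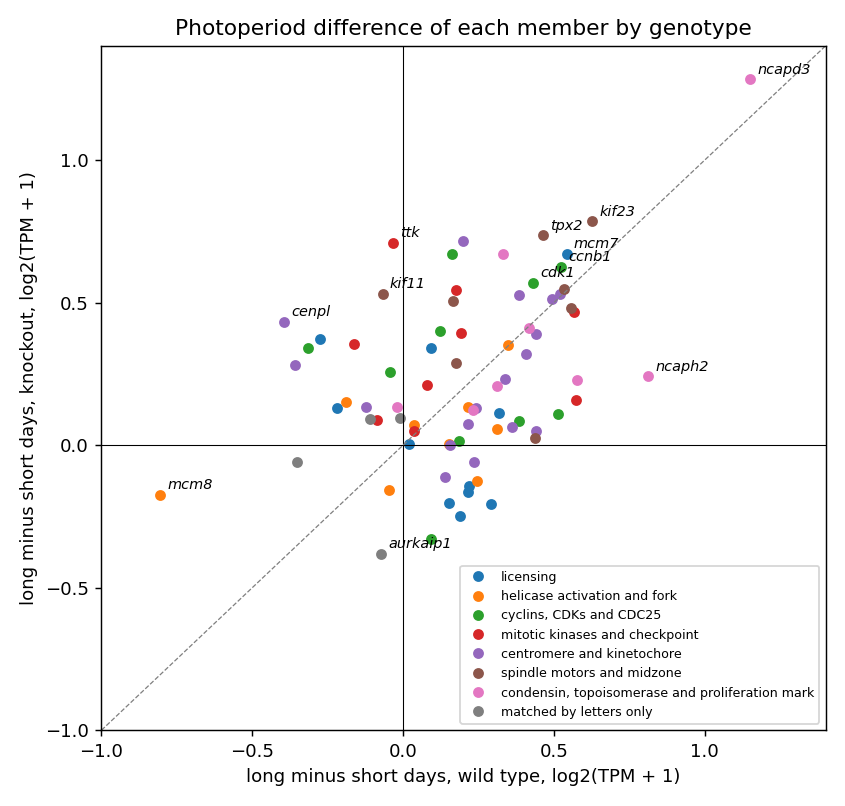
Difference in log2(TPM + 1) between long and short days in wild type (x axis) and in the knockout (y axis) for each of the 76 members, coloured by role. The dashed line marks equal differences. The upper right region holds 48 members, mcm7, cdk1, tpx2, kif23 and ccnb1 among them, and cenpl lies in the upper left, higher under long days in the knockout and lower in wild type.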

How the data were processed

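The authors deposited 1 table of TPM values per gene and library, and each of its 12 columns sums to the same total within rounding. Per the submitters' processing notes, STAR 2.7.9a and RSEM 1.3.1 were used, with no role given for either. Per the labels' protocols, libraries were poly-A selected, strand-specific and paired-end. No coordinates are printed, as the genome build is not given in the sources used here. Read depth is unknown because TPM keeps no counts, and precision comes from the spread of 3 libraries a group. Reads shared by near-identical gene copies may be split between them by the estimate.

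Symbols came from NCBI gene IDs matched to the RefSeq gene table of assembly ASM223467v1 (26663 of 26663). Genes at 1 TPM or more in at least 3 libraries entered 1 limma fit (limma 3.58.1, R 4.3.3) on log2(TPM + 1) with 4 group means, a shared spread and a trend in the prior variance. A fold on this scale understates the change of scarce genes. There were 7 two-sided contrasts, each adjusted by Benjamini-Hochberg over all 18218 genes and called under 0.05. The photoperiod contrast over both genotypes is the mean of the 2 within-genotype differences and uses the same libraries. The fit was also run on simulated data, with planted changes larger than those of the called members. That run does not bear on changes of their size.

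The members, the gene lists and the tests were chosen with earlier results of these data known. Members were named with values if called in any contrast, if among the 10 smallest p by day length over both genotypes or the 3 smallest p by genotype or for the difference between genotypes, if the most abundant of a role, or if a subunit of MCM2 to MCM7, which gave 21 genes. Other genes with values (cdc25b, cdk2, ccne1, ccne2, plk1, cenpf, cenph, ncaph2, mcm8, racgap1) were named after their values were seen. Alternatives were a pseudocount of 0.1, filters of any TPM above 0 and of 5 TPM, median-ratio scaling, no trend, array weights, the compared groups alone, each library left out, a replicate block and, chosen after the data were seen, a filter of 1 TPM in at least 3 libraries of each day length. No library was left out of the main results.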

Additional observations from a re-analysis of the deposited data

How the results depend on the processing

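Of 119 alternative counts of called members, 101 stayed within 1.5 times the main count and 18 did not. The main count was 0 in wild type, in each genotype comparison and in the difference between genotypes. A 0 that stayed 0 is among the 101, so this tally says little about the calls themselves. The contrasts that held calls, the knockout and both genotypes, had 15 and 19 alternatives, and most of the 18 changes fell there. In wild type the count of 0 became 1 with array weights, mcm7. In the knockout the count of 4 became 0 with the 2 compared groups alone and lay between 0 and 2 with each library left out. Over both genotypes the count of 5 became 3 with a filter of 5 TPM, 9 with median-ratio scaling (8 higher and 1 lower, aurkaip1), 8 with no trend, 12 with array weights (11 higher and 1 lower), and lay between 2 and 8 with each library left out. The filter of 5 TPM left tpx2, kif23 and ccnb1 untested, so its 3 calls were mcm7, cdk1 and a member not called in the main fit of this contrast. Between genotypes under short days the count of 0 became 1 with no trend, cenpl. Apart from the filter applied to each day length, the shares of all genes called under the alternatives are not given here. The causes were not tested. No direction of a called member was reversed under any alternative run. The calls of mcm7 and cdk1 over both genotypes held under all 19 alternatives. A fit of the spread without the interferon-rich library (short-day wild-type replicate 3), chosen after the data were seen, gave 3 calls in the knockout, mcm7, cdk1 and tpx2. The members' median over both genotypes stayed between 0.15 and 0.27, except 0.06 over the 25 members left by the 5 TPM filter. With title numbers as a replicate block, 0 members were called in each genotype contrast and in the difference between genotypes. Deviations of same-numbered libraries correlated at -0.048 to 0.088, so the numbers do not pair the samples, and the day-length groups share no number. Depth is unknown, and values under 1 TPM, as for kif23, are the least certain.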
